A study of Mus musculus with 4 samples.

Results

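The Hox cluster genes are the homeobox genes that lie side by side in 4 clusters, a to d, and are numbered by paralogue group along each cluster. They were taken as every symbol of the deposited gene count table made of Hox, a cluster letter and a number, which gave 39 of 24548 genes: 11 in Hoxa, 10 in Hoxb, 9 in Hoxc and 9 in Hoxd. Of these, 37 had 40 or more reads summed over the 4 libraries and were measured, among 23128 regions measured in all. Chromatin immunoprecipitation followed by sequencing (ChIP-seq) with an antibody against Foxp1, a forkhead transcription factor, was run on basal and on luminal epithelial cells from the mammary glands of wild-type FVB/N female mice aged 10 to 12 weeks (the sample labels spell the strain FBV/N). The 4 libraries are 1 Foxp1 ChIP and 1 input, which is chromatin sequenced without an antibody, for each cell type. The file headers abbreviate basal as DP and luminal as LUM. The labels give no treatment for any group, and neither the number of animals pooled nor a sorting scheme. No group has a replicate and no control antibody library was used here, so the intervals given hold counting error alone and how much animals vary is unknown.

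Hox proteins are transcription factors that bind DNA through a homeodomain, usually together with cofactors of the TALE family (Pbx, Meis and Pknox), and they give cells a position along the body axis. The order of the genes in a cluster follows the order in which they are used in the embryo, with low numbers used at the head end and high numbers at the tail end. Polycomb proteins keep unused Hox clusters silent and Trithorax proteins keep used ones active. In the mammary gland, Hox genes act in bud formation, in branching and in the growth of the gland in pregnancy. Foxp1 is not a homeobox protein, and the question here is whether its ChIP recovered the regions of these genes above input.

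In both cell types the Hox regions were recovered about as often as the rest of the genome. Summed over the 37 members, basal ChIP held 4956 reads and basal input 4272, a scaled ratio of 0.985 (99% interval 0.933 to 1.04). Luminal ChIP held 4371 reads and luminal input 6221, a ratio of 0.956 (0.908 to 1.01). The median member had a log2 ratio of -0.05 in basal and -0.01 in luminal cells, beside -0.014 and -0.002 over all regions measured; centred instead on olfactory receptor genes, whose medians were -0.21 and -0.07, the Hox medians changed sign, to 0.16 and 0.058. A region was called higher or lower when it differed by 1.5-fold or more and its exact 99% interval excluded 1. By that rule 1 of 37 members was higher in basal ChIP, Hoxb4, where 4.24% of all regions were, and 2 were lower, Hoxa5 and Hoxd4, where 4.06% were. In luminal ChIP none was higher, where 1.5% of all regions were, and 1 was lower, Hoxa13, where 2.13% were. These counts are close to the share called among all regions and are no result about the family. A ratio from a pool of cells cannot tell a weak signal in many cells from a strong one in few.

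**Figure D1:**
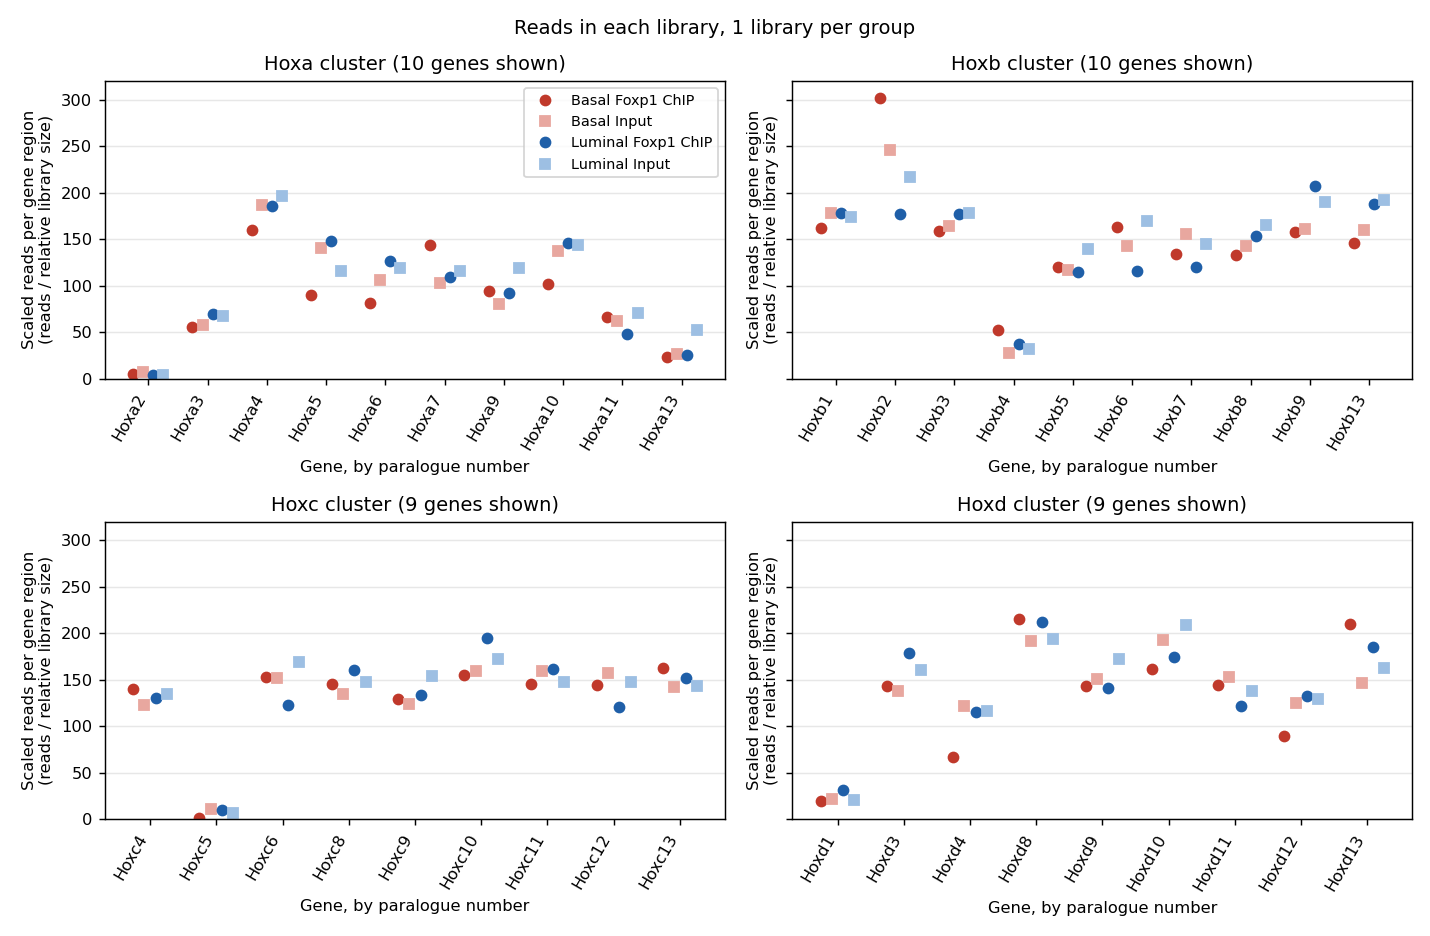
Reads of 38 Hox genes in the 4 libraries, divided by the relative library size (vertical axis), in 1 panel per cluster with genes in paralogue order. Circles are Foxp1 ChIP and squares are input, red for basal and blue for luminal cells, and each point is 1 library. For most genes the 4 points lie close together; Hoxa5, Hoxd4 and Hoxd12 have the basal ChIP point lowest, and Hoxb2, Hoxa7 and Hoxd13 have it highest.

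The libraries held 3080114 to 4201459 reads in gene regions. The median Hox member had 150 reads in ChIP over 126 in input in basal cells and 119 over 178 in luminal cells, against 160 over 144 and 136 over 192 for the median measured region. Because the libraries differ in size, raw reads were divided by relative library sizes of 1.05 for basal ChIP, 0.888 for basal input, 0.889 for luminal ChIP and 1.21 for luminal input before any ratio was taken. A marker gene is present in the DNA of every cell, so markers were compared by recovery. Of 10 basal marker genes, 5 were higher in basal than in luminal enrichment and 0 lower (median log2 difference 0.56), where 3.72% and 4.16% of all regions were. Of 10 luminal marker genes, 0 were higher and 1 lower (median difference -0.007, 5 of 10 above 0), so the difference in enrichment did not set the luminal markers apart. Over own input, luminal markers had medians of 0.27 in luminal ChIP (3 higher, 8 above 0) and 0.19 in basal ChIP (1 higher). Basal markers had medians of 0.53 in basal ChIP (3 higher) and -0.17 in luminal ChIP (0 higher). Of all regions, 1.5% were higher in luminal and 4.24% in basal ChIP. Between basal and luminal input, 9 of 10 basal markers lay above 0 (median 0.28) and 2 of 10 luminal markers did (median -0.39). The lean above 0 was not particular to basal markers. In the same comparison 5 of 6 fibroblast markers (median 0.20) and 956 of 1089 olfactory receptor genes (median 0.21) lay above 0. Endothelial, leukocyte and adipocyte markers had input medians of 0.12, -0.06 and -0.01. Fibroblast (6 genes), endothelial (5), leukocyte (5) and adipocyte (5) markers had medians between -0.22 and -0.01 in basal ChIP and between -0.29 and 0.01 in luminal ChIP. None of these genes was called higher, where 4.24% of all regions were in basal and 1.5% in luminal ChIP. In basal ChIP 1 fibroblast, 1 endothelial and 1 leukocyte marker were lower, where 4.06% of all regions were. In luminal ChIP 1 adipocyte marker was lower, where 2.13% were. What other cells contributed was not tested.

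The precision was set by these counts. The 99% interval lay wholly between 1.5-fold lower and 1.5-fold higher in 16 of 37 members in basal cells and in 17 in luminal cells. The upper bound lay under 1.5-fold in 24 members in basal and in 31 in luminal cells. These bounds hold for this scaling, and centring on olfactory receptors would raise each basal ratio. Hoxc8, a gene used in the thoracic region and in the mammary bud, had 152 reads in ChIP over 120 in input in basal cells and 143 over 178 in luminal cells. Its ratios were 1.08 (0.78 to 1.49) in basal and 1.09 (0.812 to 1.47) in luminal cells. Hoxd8 had 225 over 170 reads in basal and 189 over 234 in luminal cells, with ratios of 1.12 (0.861 to 1.47) and 1.10 (0.849 to 1.42). All 4 libraries of each of these genes thus lay near one level once scaled.

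**Figure D2:**
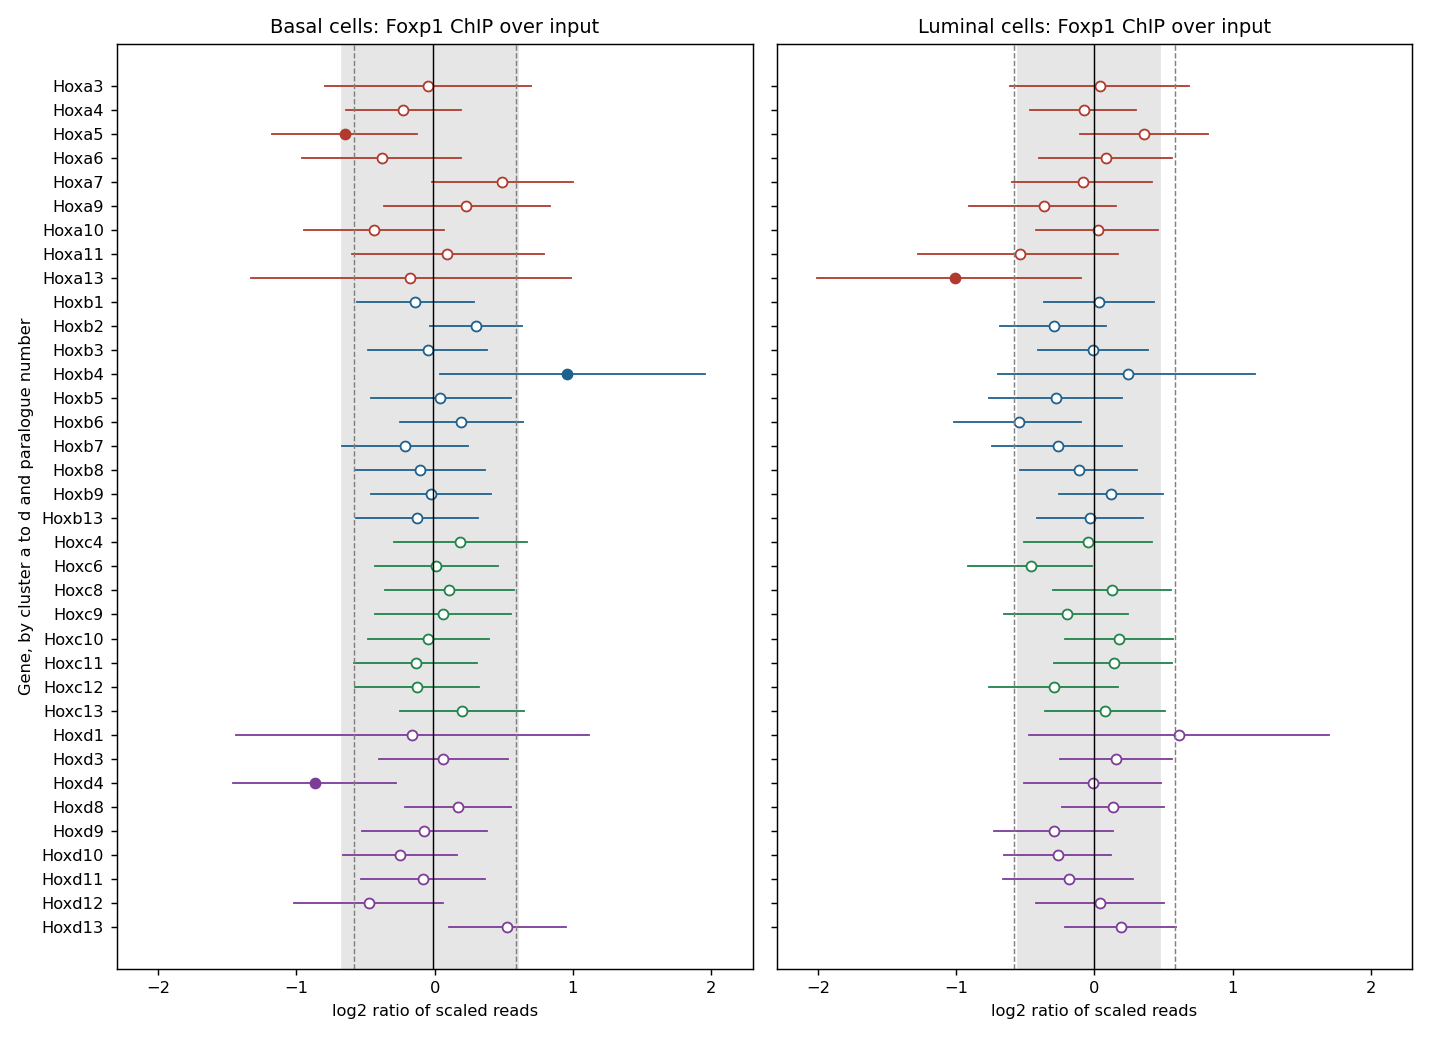
The log2 ratio of scaled reads, ChIP over own input, for 36 measured Hox members in basal (left) and luminal cells (right), coloured by cluster. Points are ratios and lines their exact 99% counting intervals, filled points are called, the black line is the median and the grey band the central 90% of all 23128 regions, and dashed lines mark 1.5-fold. Nearly all points lie inside the grey band, with Hoxb4, Hoxd4 and Hoxa5 filled on the left and Hoxa13 on the right.

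Hoxb4, best known for its role in blood stem cells, was the one member called higher. It lies on chromosome 11 from 96318267 to 96321638 (GRCm38) and had 55 reads in ChIP over 24 in input in basal cells and 33 over 38 in luminal cells. Scaled, basal ChIP stood above the other 3 libraries, which lay close to each other. The basal ratio was 1.95-fold (99% interval 1.03 to 3.88) and the luminal one 1.18 (0.618 to 2.24). The difference between the cell types, a log2 of 0.70 with a standard error of 0.49 from counting, was not called. The lower bound of the basal interval is close to 1, and the call was lost under total-count scaling (log2 0.90) and with an interval widened by the spread among olfactory receptor genes.

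Hoxd4, on chromosome 2 from 74721978 to 74729160, was lower in basal ChIP. It had 70 reads in basal ChIP and 108 in basal input, a ratio of 0.55 (0.364 to 0.823), and 103 in luminal ChIP over 141 in luminal input, a ratio of 0.994 (0.704 to 1.40). Basal ChIP was the one low library of the 4. The difference between the cell types was -0.85 (standard error 0.29) and was called, lower in basal cells. That call on the difference was lost with ratios centred on olfactory receptors (-0.70). Hoxa5, on chromosome 6 from 52201754 to 52204587, which acts in lung and in mammary epithelium, had 94 reads in ChIP over 125 in input in basal cells and 132 over 140 in luminal cells. Its basal ratio was 0.638 (0.443 to 0.914), called lower, and its luminal ratio was 1.28 (0.931 to 1.77), not called. The difference of -1.01 (standard error 0.26) was the widest of the 37 members. The basal call on Hoxa5 was lost with both inputs summed as background (log2 -0.49) and with ratios centred on olfactory receptors (-0.43). It was also lost with an interval widened by the spread among olfactory receptor genes.

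Hoxa13, which patterns the distal limb and the urogenital tract, lies on chromosome 6 from 52258853 to 52260880. It had 24 reads in ChIP over 23 in input in basal cells and 23 over 63 in luminal cells. Luminal input is the one library that stood apart, above the other 3. The luminal ChIP ratio was 0.497 (0.249 to 0.933) and that of basal over luminal input was 0.497 (0.249 to 0.935), both called lower and both resting on those 63 reads. With both inputs summed as background the luminal log2 ratio moved from -1.01 to -0.66 and was not called. Both calls were lost with an interval widened by the spread among olfactory receptor genes.

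The 250 bases before the start of these 4 called members, from RefSeq on GRCm38.p6, show how unlike their base composition is; capitals mark CG dinucleotides, and each runs 5′ to 3′ on the strand of the gene. They are chr11:96318017-96318266 on the plus strand for Hoxb4, chr2:74721728-74721977 on the plus strand for Hoxd4, chr6:52204588-52204837 on the minus strand for Hoxa5 and chr6:52260881-52261130 on the minus strand for Hoxa13. Hoxa13 has 80% G and C with 35 CG, Hoxa5 has 63.6% with 28, Hoxb4 has 58% with 14, and Hoxd4 has 40.4% with 3.
Hoxb4: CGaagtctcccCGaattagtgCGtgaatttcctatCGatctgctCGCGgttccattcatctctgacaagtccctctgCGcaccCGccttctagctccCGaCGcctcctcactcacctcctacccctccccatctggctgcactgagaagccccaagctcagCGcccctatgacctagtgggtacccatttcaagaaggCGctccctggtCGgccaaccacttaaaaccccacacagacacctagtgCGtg
Hoxd4: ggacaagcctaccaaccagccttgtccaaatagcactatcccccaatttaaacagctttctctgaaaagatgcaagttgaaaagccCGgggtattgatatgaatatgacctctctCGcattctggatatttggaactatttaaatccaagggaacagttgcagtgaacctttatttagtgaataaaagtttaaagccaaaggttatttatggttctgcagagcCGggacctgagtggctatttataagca
Hoxa5: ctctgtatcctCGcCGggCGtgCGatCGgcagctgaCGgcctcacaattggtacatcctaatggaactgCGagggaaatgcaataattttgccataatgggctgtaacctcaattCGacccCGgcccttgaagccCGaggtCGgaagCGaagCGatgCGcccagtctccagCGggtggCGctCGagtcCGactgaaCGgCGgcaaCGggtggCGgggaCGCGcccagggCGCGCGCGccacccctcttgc
Hoxa13: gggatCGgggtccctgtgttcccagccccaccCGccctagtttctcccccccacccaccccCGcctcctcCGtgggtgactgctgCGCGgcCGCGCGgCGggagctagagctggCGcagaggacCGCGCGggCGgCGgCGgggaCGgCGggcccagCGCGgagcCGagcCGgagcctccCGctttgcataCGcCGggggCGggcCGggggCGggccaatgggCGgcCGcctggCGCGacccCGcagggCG
Which part of a gene was counted is unknown here, so these bases need not lie in the counted region. The promoter table held 24 starts for 22 of the 39 genes. The forkhead motif TGTTTAC, searched on both strands, was in 0 of the 24 and in 3.17% of all 32851 promoters in the table. The wider form TGTTTNC, which includes TGTTTAC, was in 2 of 24 and in 17.8% of all, namely TGTTTTC and TGTTTCC before the upstream start of Hoxd11 and GCAAACA, a match on the other strand, before Hoxa2. The median promoter had 58.6% G and C in the Hox set and 52.4% in the table. Across 17432 measured regions with a promoter, the basal log2 ratio had a Pearson r of 0.24 with G and C content, and across the 21 measured Hox members with one it was 0.08. These are correlations across genes, which share libraries and are not replicates.

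The clusters were examined next, in paralogue order. In Hoxa, 10 members were measured, with a summed ratio of 0.910 in basal and 0.954 in luminal cells, and 4 and 5 of them lay above 0 on the log2 scale. Hoxa7, beside Hoxa5 and Hoxa6, had the highest basal ratio of the cluster, with 150 reads over 91 in basal cells (1.40, interval 0.989 to 1.997) and 97 over 140 in luminal cells (0.943). It was not called, and of the alternatives run it passed only with ratios centred on olfactory receptors. Hoxa6 (85 over 94 reads in basal, 112 over 144 in luminal) and Hoxa10 (106 over 122, and 130 over 174), a gene of the developing uterus, had basal log2 ratios of -0.38 and -0.44 and luminal ones of 0.08 and 0.02. Neither passed. Hoxa9, one of the paralogue group 9 genes needed for mammary growth in pregnancy, had 98 reads over 71 in basal and 82 over 144 in luminal cells, log2 ratios of 0.23 and -0.37. The other members described here ranged from -0.23 (Hoxa4) to 0.09 (Hoxa11) in basal and from -0.54 (Hoxa11) to 0.04 in luminal cells, with Hoxa13 given above.

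In Hoxb all 10 members were measured, and the summed ratios were 1.02 in basal and 0.917 in luminal cells (99% intervals of the log2 ratios -0.11 to 0.17 and -0.26 to 0.01). In this cluster 2 members had a called difference between the cell types. Hoxb2, which acts in hindbrain patterning, lies on chromosome 11 from 96351632 to 96354020 and had the most reads of any member, 316 over 218 in basal and 157 over 262 in luminal cells. Its ratios were 1.23 (0.978 to 1.55) in basal and 0.815 (0.624 to 1.06) in luminal cells, neither called. Hoxb6, on chromosome 11 from 96292814 to 96301569, had 171 over 127 reads in basal and 103 over 205 in luminal cells, with ratios of 1.14 (0.841 to 1.56) and 0.684 (0.495 to 0.936). In both genes basal ChIP lay above its input and luminal ChIP below its own. Hoxb7, studied in breast tumours, was lowest of the cluster in basal cells with 140 over 138 reads (log2 -0.22) and had 107 over 175 in luminal cells (-0.27). Hoxb1, Hoxb3, Hoxb5, Hoxb8, Hoxb9 and Hoxb13 lay between -0.14 and 0.04 in basal and between -0.28 and 0.12 in luminal cells.

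Hoxc members varied least in basal cells, from -0.14 (Hoxc11, 152 over 142 reads) to 0.20 (Hoxc13, 170 over 126 reads), the latter a regulator of hair keratin genes. None of the 8 measured was called in either cell type, and the summed ratios were 1.02 and 0.969. In luminal cells Hoxc10 was highest, with 173 over 208 reads (log2 0.18), and Hoxc6 lowest, with 109 over 204 (-0.46, ratio 0.727, interval 0.529 to 0.99). Hoxc6 had 160 over 135 reads in basal cells, a ratio of 1.01, and its difference of 0.46 (standard error 0.24) was not called. Its luminal interval excluded 1 but the ratio did not reach 1.5-fold. Hoxc4 and Hoxc9 had basal log2 ratios of 0.19 and 0.06 and luminal ones of -0.05 and -0.20, and Hoxc12 had -0.13 and -0.29.

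In Hoxd the summed ratios over 9 members were 0.963 in basal and 0.994 in luminal cells. Hoxd13, a gene of digit formation at the outer end of the cluster, had 220 reads in ChIP over 130 in input in basal cells and 165 over 197 in luminal cells. Its basal ratio of 1.44 (1.08 to 1.93) excluded 1 but did not reach 1.5-fold, and its luminal ratio was 1.14 (0.863 to 1.503). Hoxd12, its neighbour, had 94 over 111 reads in basal cells (log2 -0.48) and 118 over 156 in luminal cells (0.04). Hoxd10, which acts in the lactating mammary gland, had 169 over 171 and 155 over 253 reads, log2 ratios of -0.25 and -0.26 that did not pass. Hoxd9, of the same paralogue group as Hoxa9, had 150 over 134 and 125 over 208 reads and was lowest of the cluster in luminal cells (-0.29). Hoxd3 and Hoxd11 had basal log2 ratios of 0.06 and -0.09 and luminal ones of 0.16 and -0.18.

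By paralogue class, the median log2 ratio in basal cells was -0.05 in the 7 anterior members (groups 1 to 3), 0.02 in the 14 central members (4 to 8) and -0.08 in the 16 posterior members (9 to 13). In luminal cells the medians were 0.04, -0.06 and -0.11. Members of 1 paralogue group did not always move together. In group 4 the basal log2 ratios were -0.23 for Hoxa4, 0.96 for Hoxb4, 0.19 for Hoxc4 and -0.86 for Hoxd4. This group holds the highest and the lowest basal ratio of all measured members, so its spread is that of the family. In luminal cells the same 4 genes lay between -0.08 and 0.24. Group 8 was the opposite case, with 3 members between -0.11 and 0.17 in basal and between -0.11 and 0.14 in luminal cells.

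The difference between the cell types, taken as the basal log2 ratio minus the luminal one, had a median of 0.03 over the 37 members and of 0.003 over all regions. It was called higher in basal cells for 2 members, Hoxb6 (0.74, standard error 0.24) and Hoxb2 (0.59, standard error 0.19), where 3.72% of all regions were. It was called lower for 2 members, Hoxa5 and Hoxd4, where 4.16% were. Hoxb2 was 1.51-fold, just past the threshold, and its call was lost with total-count scaling (0.57) and with a minimum of 200 counts (0.58). The call on Hoxb6 was lost with both inputs summed as background (0.50). Across members the signs were mixed: 7 lay above 0 in both cell types, 11 below 0 in both, 9 above in basal and below in luminal, and 10 the other way. Pearson's r between the 2 ratios over the 37 members was -0.03 and Spearman's rho -0.04, against 0.21 and 0.25 over all 23128 regions; these are descriptions across genes from the same 4 libraries. None of the 4 called differences passed once the spread among olfactory receptors was added to the interval.

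**Figure D3:**
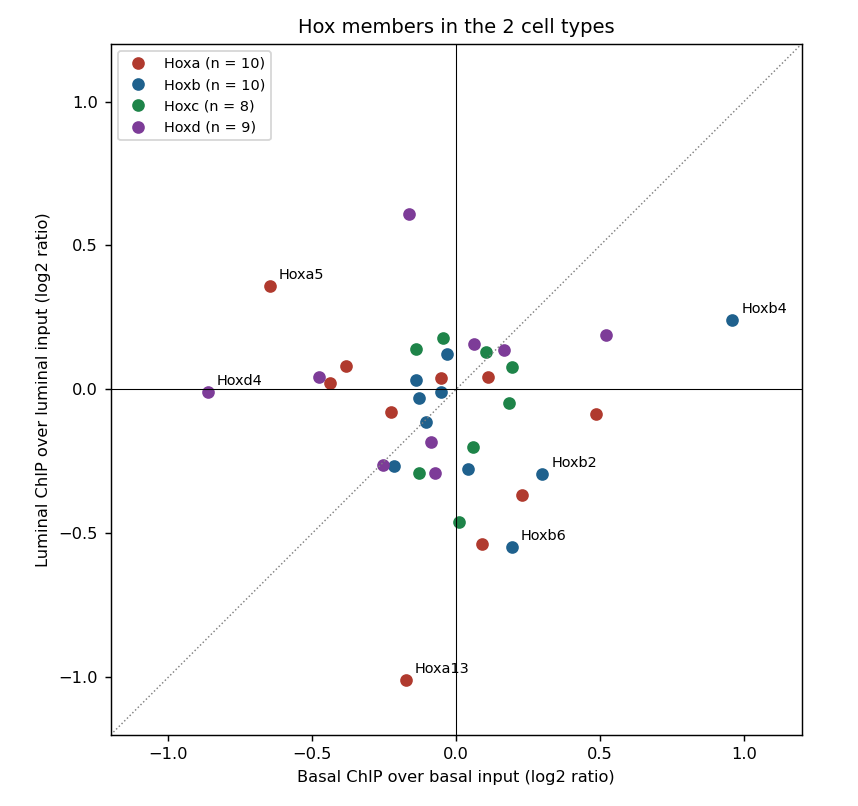
Basal (horizontal) against luminal (vertical) log2 ratio of ChIP over own input for the 37 measured Hox members, coloured by cluster; each point is 1 gene and the dotted line marks equal ratios. Named points are called in at least 1 comparison. The points scatter around the origin with no trend (r = -0.03), Hoxa5 and Hoxd4 lying far to the left and Hoxb4 far to the right.

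The spread among members was measured as the variance of their reads around 1 common split between a pair of libraries, divided by the variance that counting alone gives, so that 1 means counting error only. It was 2.43 for ChIP over input in basal cells, 1.80 for the same in luminal cells and 1.06 between the inputs. Among 1089 olfactory receptor genes, which serve the sense of smell, it was 2.29, 2.13 and 1.32, and among all regions 4.45, 2.87 and 1.91. The Hox spread in the ChIP comparisons was thus nearer to that of the receptors than to that of all regions, and between the inputs it was close to counting error.

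Basal input over luminal input holds no antibody signal. In it 0 members were called higher, where 0.709% of all regions were, and 1 lower, Hoxa13, where 0.463% were. The members still leaned to one side: 28 of 37 lay below 0, where all regions were split evenly (49.9% above 0), and the median was -0.13 against -0.001. The summed reads, 4272 and 6221, gave a ratio of 0.936 (0.889 to 0.985). Medians were -0.17 in Hoxa, -0.21 in Hoxb, -0.11 in Hoxc and -0.05 in Hoxd. Hoxa5 was highest with a ratio of 1.22 (0.878 to 1.68), and Hoxb2 (log2 0.18), Hoxd11 (0.15) and Hoxc11 (0.12) were the highest of their clusters. The lowest beside Hoxa13 were Hoxb13 in Hoxb (142 over 232 reads, -0.26), Hoxc9 in Hoxc (110 over 186, -0.31) and Hoxd3 in Hoxd (122 over 194, -0.22). Hoxa9, with 71 over 144 reads, had a ratio of 0.672 (0.454 to 0.98), under the 1.5-fold minimum. This lean was not particular to Hox genes. Among the lists described below, input medians were -0.10 in flanking genes and -0.10 in other homeobox and T-box genes. They were -0.11 in ParaHox and Evx genes, -0.13 in Trithorax genes and -0.09 in Polycomb genes. Noncoding genes of the clusters (-0.03) and TALE cofactor genes (0.01) lay nearer to 0. Olfactory receptors leaned the other way, with a median of 0.21. The input ratio had a Pearson r of -0.23 with promoter G and C content across the 17432 regions; the part of base composition in the Hox values was not tested. Basal and luminal input are also the divisors of the ChIP ratios, so these values are not independent of those above.

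The reads of a member went loosely with how close its neighbours lie. The gap is taken between whole genes, and which part of a gene was counted is unknown. The 9 members with a gap of over 3 kb to the nearest gene of the count table had 296 to 480 reads summed over both inputs, whereas the 15 that overlap another gene had 18 to 424. Hoxa2 and Hoxc5, the 2 members below the minimum, were scarce in every library. Hoxa2 had 5 over 6 reads in basal and 3 over 4 in luminal cells, and Hoxc5 had 1 over 10 and 9 over 8. Hoxa2 lies 396 bp from Hotairm1 and Hoxc5 overlaps Mir615. Just inside the minimum was Hoxd1, with 20 over 19 reads in basal and 28 over 25 in luminal cells, 83 bp from Haglr. Hoxd1 had the highest luminal ratio of all members, 1.52-fold, but its interval of 0.722 to 3.25 did not exclude 1. Over the 39 genes Pearson's r between gap and input reads was 0.36 and Spearman's rho 0.36. The pattern has exceptions: Hoxd10 and Hoxa4 overlap another gene and had 424 and 403 input reads, and Hoxa13 had 86 with its nearest gene 1894 bp away. The part of overlap in these counts was not tested.

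**Figure D4:**
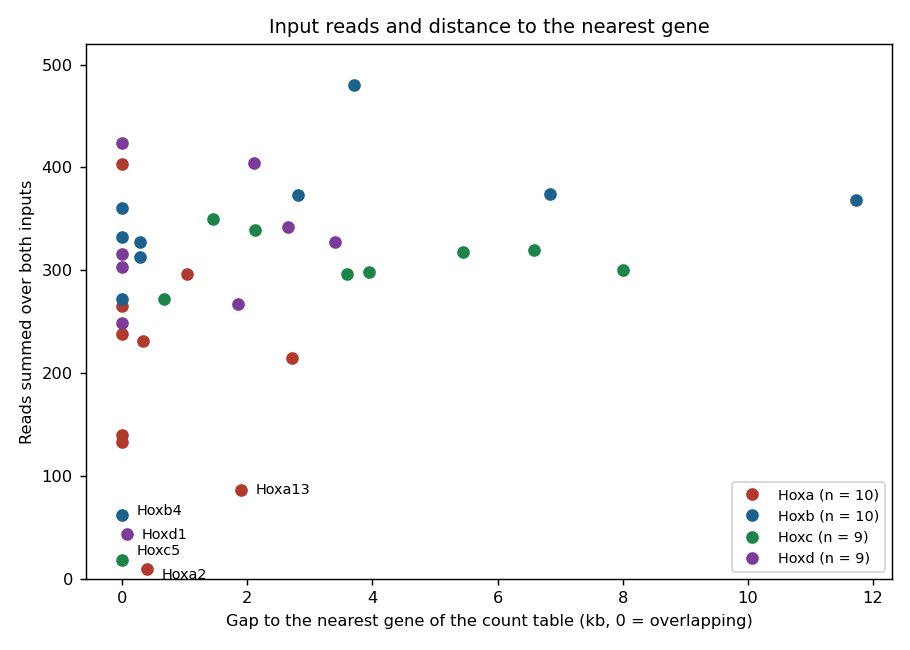
Reads summed over both inputs (vertical axis) against the gap to the nearest gene of the count table (horizontal axis, kb, 0 for overlapping genes) for 38 Hox genes, coloured by cluster. Each point is 1 gene, and the 5 plotted genes with the fewest input reads are named. All genes with gaps above 3 kb have 296 or more input reads, and 4 of the 5 named genes overlap another gene or lie within 396 bp of one. The 396 bp is the gap of Hoxa2 itself. Of all 39 Hox genes, 15 overlap another gene and 6 more lie 1 to 1000 bp from one.

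Noncoding genes of the clusters, among them 5 microRNA genes whose 5p products share 2 seeds, were set beside the Hox members. MicroRNAs silence messenger RNAs, several Hox messages among them, by pairing through bases 2 to 8. The mature 5p forms, 5′ to 3′ with the seed in capitals, show the families: miR-10 genes lie next to paralogue group 4 genes and miR-196 genes near paralogue group 9 and 10 genes.
mmu-miR-10a-5p: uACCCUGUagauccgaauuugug
mmu-miR-10b-5p: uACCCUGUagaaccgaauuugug
mmu-miR-196a-5p: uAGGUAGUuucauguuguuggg
mmu-miR-196b-5p: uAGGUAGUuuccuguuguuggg
Mir10a, which lies just before Hoxb4, had 64 reads in ChIP over 38 in input in basal cells and 39 over 36 in luminal cells, with log2 ratios of 0.52 in basal and 0.56 in luminal cells that did not pass. Mir10b, which lies within the span of Hoxd4, had 114 over 106 reads in basal and 121 over 154 in luminal cells and log2 ratios of -0.13 and 0.10. Mir196b, between Hoxa9 and Hoxa10, had 72 over 94 reads in basal and 90 over 145 in luminal cells and was lower in basal ChIP (0.65-fold), and Mir196a-1 and Mir196a-2, which give the same mature 5p sequence, had basal log2 ratios of -0.09 and -0.49. Hottip, a long noncoding RNA gene 1894 bp from Hoxa13, had 13 over 31 reads in basal and 20 over 63 in luminal cells and was lower in both cell types, at 0.356-fold in basal and 0.432-fold in luminal cells. The highest raw read count of Hottip was in luminal input, the largest library. Hotairm2 was lower in luminal ChIP, with 25 reads over 82. Of the 15 noncoding genes measured, 0 were higher and 2 lower in each cell type, where 4.06% of all regions were lower in basal and 2.13% in luminal ChIP, and the medians were -0.21 in basal and -0.23 in luminal cells. Halr1 (-0.64) was the 1 of the 15 with a called difference between the cell types, and Hotair had 185 reads over 163 in basal and 150 over 213 in luminal cells, log2 ratios of -0.05 and -0.06.

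The genes whose products work with Hox proteins or on Hox clusters had medians above 0. Whether these differ from the Hox median was not tested. Medians above 0 were not particular to these lists. Luminal markers had 0.19 in basal and 0.27 in luminal ChIP, and basal markers 0.53 in basal but -0.17 in luminal ChIP. Fibroblast, endothelial, leukocyte and adipocyte medians lay below 0 in basal ChIP. All 9 TALE cofactor genes were measured, with a median log2 ratio of 0.29 in basal and 0.27 in luminal cells, and 8 of 9 lay above 0 in each. In basal cells 3 were higher and 0 lower, where 4.24% and 4.06% of all regions were. Meis1 had 347 reads over 162 (1.82-fold) and Pknox2 251 over 135 (1.58-fold). Pbx2 (-0.02) was lowest in basal cells. In luminal cells 0 of 9 were called, with Pbx3 (0.52) highest and Pbx4 (-0.01) lowest, and Meis1 and Pknox2 stood at 0.37 and 0.38. No difference between the cell types was called for any of the 9.

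Of 28 Polycomb genes measured, 4 were higher in basal ChIP and 0 lower, with a median of 0.19 (4.24% and 4.06% of all regions were called). Aebp2, an accessory subunit of Polycomb complex 2, had 460 reads over 194 in basal cells (2.01-fold) and 264 over 230 in luminal cells (1.56-fold), and was the 1 of 28 called higher in luminal cells, where the median was 0.16 and 1.5% of all regions were higher. Pcgf2 (1.74-fold) and Rybp (1.59-fold), both parts of Polycomb complex 1, were also higher in basal cells. Ezh2, the methyltransferase of the second complex, had log2 ratios of 0.25 and 0.12 that did not pass. The lowest were Rbbp4 in basal (-0.97, on 6 reads over 10) and Pcgf5 in luminal cells (-0.34). Of 16 Trithorax genes measured, 3 were higher in basal ChIP and 0 lower (median 0.38), beside the same 4.24% and 4.06% of all regions. These were Kmt2a, the histone methyltransferase that maintains Hox expression, with 335 reads over 145 (1.96-fold), Setd1b (1.62-fold) and Kmt2d (1.59-fold). In luminal cells the median was 0.11 and 0 were called, Paxip1 (0.44) being highest and Ash2l (-0.69) lowest; Ash2l was also lowest in basal cells (-1.01, on 14 reads over 24). Kmt2a and Kmt2d were higher in basal than in luminal enrichment, and Ncoa6 lower.

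Relatives and neighbours of the Hox genes had medians near or below 0 before centring on olfactory receptors. The 9 ParaHox and Evx genes, relatives of the Hox genes, had a median of -0.45 in basal and -0.07 in luminal cells. Evx1, which lies beyond Hoxa13, had 51 reads over 79 and Cdx1 93 over 135 in basal cells, and both were lower, as were 4.06% of all regions; Pdx1 (0.29) was highest. None of the 9 was called in luminal cells, where Gsx1 (0.26) and Cdx2 (-0.42) were the extremes, and Pdx1 was lower in basal than in luminal input. Among 61 other homeobox and T-box genes, medians were -0.10 in basal and -0.09 in luminal cells, with 2 higher and 5 lower in basal and 1 of each in luminal cells. Of all regions, 4.24% were higher and 4.06% lower in basal and 1.5% and 2.13% in luminal cells. The higher ones in basal cells were Irx5 (1.01) and Tbx3 (0.83, 376 reads over 179), a T-box gene needed for the mammary bud, and the lower ones were Nkx2-1 (-0.93), Pax4, Lhx2, Tbx21 and Tbx10. In luminal cells Irx3 (0.72) was higher and Tbx20 (-0.79) lower, and Lhx9 was lower in basal than in luminal input.

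The nearest 5 protein-coding genes on each side of the 4 clusters gave 40 flanking genes, of which 37 were measured. Their medians were 0.05 in basal and 0.00 in luminal cells, and -0.10 between the inputs. Nfe2l2, the stress response regulator beyond the Hoxd cluster, was higher in both cell types, with 427 reads over 197 (1.84-fold) and 331 over 299 (1.51-fold). Evx1 was lower in basal and Skap1 in luminal cells (12 reads over 40). The lowest flanking gene in both was Copz2 (-0.97 and -1.80), without a call.

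**Figure D5:**
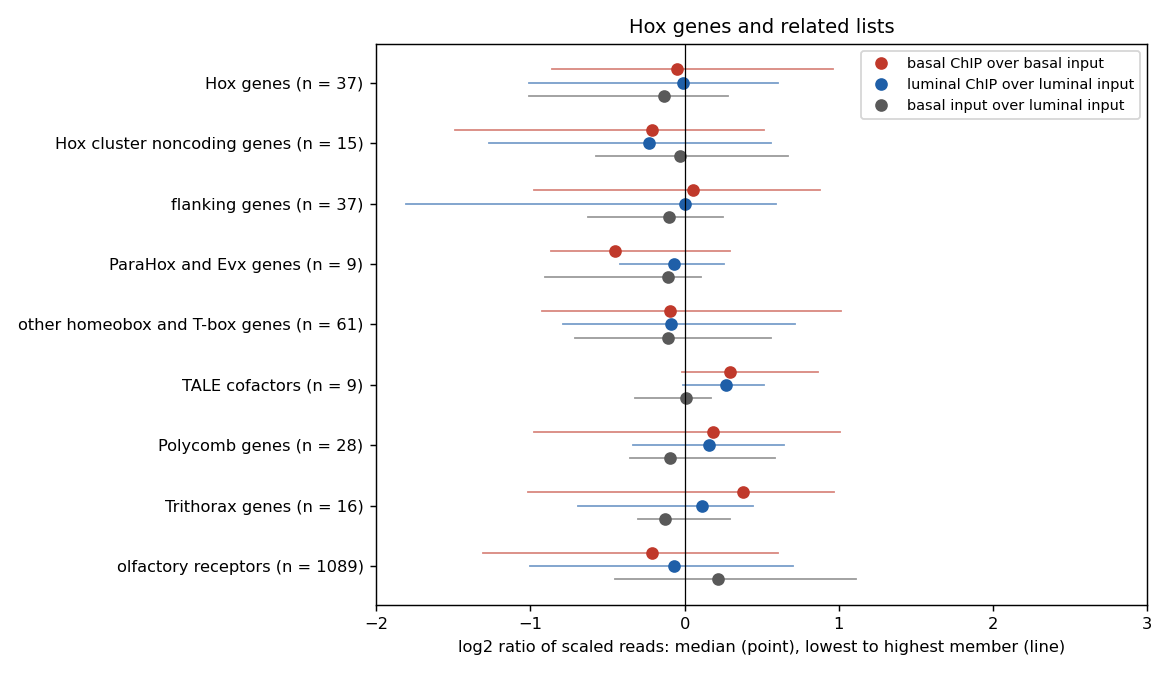
Median log2 ratio (points) and the lowest and highest member (lines) of the Hox genes and 8 other lists, for basal ChIP over input (red), luminal ChIP over input (blue) and basal over luminal input (grey); the number of measured genes is given with each list. The Hox medians of -0.05 and -0.01 in ChIP lie near 0 (0.16 and 0.058 when centred on olfactory receptors), while the TALE cofactor, Polycomb and Trithorax medians lie above 0 in both cell types (0.11 to 0.38).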

How the data were processed

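Foxp1 ChIP and input DNA of basal and luminal mammary cells were each measured in 1 library. The deposited values are raw read counts per gene, and the table and the 4 sample files held equal values for 24548 of 24548 genes in each library. Per the submitters' processing notes, reads were counted with featureCounts on mm10; nothing on the aligner, versions, duplicates or the counted part of a gene is given in the sources used here. Per the labels' protocols, single reads of 75 to 85 bp were sequenced. Genomic positions and promoter and microRNA sequences come from RefSeq on GRCm38.p6.

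Counts were scaled with TMM factors (edgeR 4.0.16, R 4.3.3) over the 23128 regions with 40 or more reads. With 1 library per group no count model was fitted. Ratios have exact Clopper-Pearson 99% intervals, and differences an interval from the 4 counts plus 0.5. Any PCR copies left in the counts enter as separate molecules, and both kinds of interval cover counting error only. Ratios and calls were tested on simulated data. Python 3.11.15, numpy 2.4.6, pandas 2.3.3 and scipy 1.17.1 were used. Alternatives were total-count and DESeq2 1.42.0 scaling, centring on olfactory receptors, summed inputs, other intervals, folds and count minimums, and an interval widened by the olfactory receptor spread.

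Members and lists were chosen with earlier results of these data known. Full values were given for called members, the extremes of each cluster, those next to the count minimum, and the extremes and called genes of related lists; Hoxc8, Hoxd8 and a few other members were added after their values were seen. The values of some genes are not reported here, though counts and medians include them.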

Additional observations from a re-analysis of the deposited data

Results flagged for a closer look

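For these genes enrichment in basal and in luminal cells differed by 1.5-fold or more with a counting interval that excludes 1, on a log2 scale of basal minus luminal and with 1 library per group, so none was tested against replicates. Among Hox members they were Hoxa5 (-1.01), Hoxd4 (-0.85), Hoxb6 (0.74) and Hoxb2 (0.59). None of these Hox calls held with the interval widened by the olfactory receptor spread. Hoxa5 lay below its input in basal and above it in luminal cells, and Hoxb2 and Hoxb6 the other way. Among the noncoding genes of the clusters and the TALE, Polycomb, Trithorax, ParaHox and Evx genes they were Kmt2d (0.64), Kmt2a (0.61), Ncoa6 (-0.63), Halr1 (-0.64), Mnx1 (-0.70), Cdx1 (-0.71) and Gsx1 (-0.71). Of 61 other homeobox and T-box genes 4 were called higher in basal cells and 7 lower, and of 37 flanking genes 2 and 1, where 3.72% and 4.16% of all regions were.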

How the results depend on the processing

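Of 101 alternative values for the member counts and medians, 69 stayed within the set limits and 32 moved; none of the 9 called member values changed sign. With DESeq2 size factors all 9 calls held. Total-count scaling left 0 members higher in basal ChIP and 1 with a higher difference. Centring on olfactory receptors moved all regions alike, to a median of 0.20 for basal ChIP, and gave 3 higher and 1 lower in basal ChIP, 2 lower between the inputs and 1 lower difference, with Hox medians of 0.16 in basal ChIP, 0.058 in luminal ChIP, -0.35 between the inputs and 0.18 for the difference; the sign of both ChIP medians thus depends on the centre. With both inputs summed, 1 was lower in basal and 0 in luminal ChIP, and the basal ChIP median was -0.12. The shared background then cancels from the difference, which becomes the ratio of basal ChIP to luminal ChIP. By that ratio 1 member was higher and 3 were lower (Hoxa5, Hoxa6 and Hoxd4), with a median of -0.11. A 2-fold minimum left 0 higher and 0 lower in basal ChIP, 0 higher differences and 1 lower. A 1.2-fold minimum gave 2 higher in basal ChIP, 3 lower in luminal ChIP and 2 lower between the inputs. A minimum of 200 counts, which leaves 33 members, gave 0 higher in basal ChIP, 0 lower in luminal ChIP, 0 lower between the inputs and 1 higher difference. The widened interval left 0 higher and 1 lower (Hoxd4) in basal ChIP, 0 lower in luminal ChIP, 0 lower between the inputs, and 0 higher and 0 lower differences. The 95% interval moved no count by over 1.5 times, and with no count minimum Hoxc5 was also lower in basal ChIP. No paired analysis was possible because each group has 1 library. Depth limits the members with few reads most, such as Hoxa13, Hoxb4 and Hoxd1, which have under 200 reads over the 4 libraries.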
